A study of Rattus norvegicus with 12 samples.

Results

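The proteasome genes of the array were the probe sets whose single gene symbol begins with Psma to Psmg and a number, and 60 of the 31099 probe sets met this rule, for 46 of 14218 genes with a symbol of their own. Of these, 55 probe sets passed a filter on low values and were tested among 18625 in all, and each of the 46 genes had at least 1 of them, among 10606 genes tested. The other 5 probe sets, of Psmd11, Psmc4, Psmb5, Psmd14 and Psme1, were low on all arrays. The genes comprised 7 of the alpha ring and 6 constitutive genes of the beta ring, 5 of the immunoproteasome, 17 of the regulatory particle (8 in its base, 9 in its lid or bound to it), 1 further activator and 1 inhibitor, and 7 assembly chaperones. Psmc3ip and Psme3ip1 met the rule by their names but are not subunits. Psmb6 and Psme3 had probe sets only in common with other symbols, so the rule left them out and neither was given a value here.

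The proteasome is the protease that degrades most ubiquitin-tagged proteins of the cell. Its core is a barrel of alpha and beta rings, whose beta subunits Psmb5, Psmb6 and Psmb7 carry the proteolytic sites, and a regulatory particle at its end recognises, unfolds and feeds in the substrate. In cells exposed to interferon and in immune cells, Psmb8, Psmb9 and Psmb10 take the places of Psmb5, Psmb6 and Psmb7, and Psme1 with Psme2 forms an alternative cap. The resulting immunoproteasome is known for producing peptides for antigen presentation. In heart muscle the proteasome takes part in the turnover of sarcomere proteins during growth and atrophy.

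RNA came from the left atrial appendage or the free wall of the left ventricle of male Sprague-Dawley rats, labelled 225 to 275 g, 28 days after surgery. Their age was not stated. The operation was either a sham or an aorto-caval shunt, in which aorta and vena cava are joined and the heart carries a volume load. Each of the 4 groups had 3 arrays, each with RNA of a pool of 2 tissues, 12 arrays in all. The sources used here do not say which rats gave which pool, or whether an atrial and a ventricular pool share rats. The p-values measure the spread between pools, and the small number of arrays limits the precision. Values are log2 expression, differences are log2 differences with the standard error (SE) of the fit, and a call is an adjusted p under 0.05 in limma. Each gene is given by its tested probe set of highest mean. Levels of different probe sets are not comparable with each other. Arrays of 1 group correlated at 0.983 to 0.996 over the probe sets, and no arrays held identical values. Of 7 atrial myocyte markers tested, 7 were higher in the atrium of sham rats, and of 7 ventricular ones 6 were lower, as the tissue labels say.

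The immunoproteasome genes had lower means in the atrium than in the ventricle. Sequences near the starts of 3 of them are therefore shown here beside those of 2 constitutive beta genes. The sequences are windows of 120 bases from RefSeq's promoter table of assembly GRCr8, read 5′ to 3′ on the gene's strand. They reach a few bases past the annotated start, except the window of Psmb2, which ends before it. The capitals mark the letters of an interferon-stimulated response element (GAAA, any 2 bases, then GAAA, searched on both strands) in the first 3 genes.
Psmb8, chr20:4657022-4657141, strand minus: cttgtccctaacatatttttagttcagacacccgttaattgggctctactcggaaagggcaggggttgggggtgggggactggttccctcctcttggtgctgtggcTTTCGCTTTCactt
Psmb10, chr19:50743283-50743402, strand minus: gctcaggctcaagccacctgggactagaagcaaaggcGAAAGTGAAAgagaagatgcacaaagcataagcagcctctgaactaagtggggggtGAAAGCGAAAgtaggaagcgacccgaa
Psme2, chr15:33052742-33052861, strand minus: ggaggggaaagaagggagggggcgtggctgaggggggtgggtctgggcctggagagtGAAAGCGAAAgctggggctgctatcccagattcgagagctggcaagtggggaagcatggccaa
In Psmb8 the element lies on the opposite strand and begins 4 bases before the start. Psmb10 has it 73 and 17 bases before the start, and Psme2 53 bases before. In the next 2 genes the capitals mark the core of an antioxidant response element (TGACNNNGC, both strands), the kind of site through which Nfe2l1 and Nfe2l2 are known to act on proteasome genes.
Psmb2, chr5:144254934-144255053, strand plus: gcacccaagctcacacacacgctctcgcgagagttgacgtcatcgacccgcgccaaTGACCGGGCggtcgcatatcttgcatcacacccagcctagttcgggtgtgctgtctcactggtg
Psmb5, chr15:32047376-32047495, strand minus: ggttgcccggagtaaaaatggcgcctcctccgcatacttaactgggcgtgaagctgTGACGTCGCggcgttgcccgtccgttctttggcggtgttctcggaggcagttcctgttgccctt
The element begins 68 bases before the start in Psmb2 and 60 bases before it in Psmb5. Of the 46 genes, 42 had a promoter in the table. Of these promoters 7 held the interferon element, which 3.92% of all 33469 promoters of 300 bases hold. It was in 3 of the 5 immunoproteasome genes, and also in Psma4, Psmb3, Psmd7 and Psmg4. The antioxidant core was in 7 of 42 (12.1% of all promoters), namely Psma3, Psmb2, Psmb5, Psmd1, Psmd3, Psme4 and Psmd9, and in 0 of the 5 immunoproteasome genes. A gamma-activated site (TTCNNNGAA, both strands) was in 4 of 42 (8.87% of all), among them Psmb8. A match is a description of letters, not of a bound site. In the gene order of the same assembly, Psmb8 lies between the peptide transporter genes Tap2 and Tap1, Psmb9 between Tap1 and RT1-DMb, and 1 gene, Emc9, separates Psme1 from Psme2.

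The atrium had lower immunoproteasome transcripts than the ventricle in both operations. In sham rats 4 of the 5 genes were lower in the atrium and 0 higher, with a median difference of -0.29, and in shunt rats 5 of 5 were lower, with a median of -0.45. Over all genes tested, 22.6% were lower in the atrium of sham rats and 20.9% in that of shunt rats, and the median differences were 0.02 and 0.01. The 5 genes had negative differences under a further quantile normalization and under cyclic loess too. In bulk tissue, fewer cells of a type and less RNA per cell cannot be told apart.

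Psmb9, the inducible counterpart of Psmb6, showed the widest gap of the 5. Its values on sham arrays 1, 2 and 3 were 6.89, 7.06 and 6.96 in the atrium and 7.43, 7.50 and 7.41 in the ventricle. On the shunt arrays they were 6.74, 7.11 and 6.99 in the atrium and 7.76, 7.45 and 7.65 in the ventricle. All 6 atrial values lay below all 6 ventricular ones. The difference was -0.47 ± 0.10 in sham rats (SE, n = 3 arrays per group, limma adjusted p = 0.00263), and -0.67 ± 0.10 in shunt rats (adjusted p = 0.000238), a level 1.59-fold lower.

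Psmb8, the inducible counterpart of the chymotrypsin-like subunit Psmb5, had sham values of 6.85, 6.97 and 6.91 in the atrium and 7.27, 7.32 and 7.40 in the ventricle. After the shunt the values were 6.89, 6.70 and 6.72 against 7.32, 7.06 and 7.24. Again no atrial array reached a ventricular one. The differences were -0.42 ± 0.08 (limma adjusted p = 0.00141) and -0.44 ± 0.08 (adjusted p = 0.00116).

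Psmb10, the inducible counterpart of the trypsin-like subunit Psmb7, had sham values of 6.57, 6.68 and 6.52 in the atrium and 6.72, 6.91 and 6.88 in the ventricle, a narrow separation. Its shunt values were 6.58, 6.61 and 6.67 against 7.01, 6.78 and 7.10, which also did not overlap. The difference after the shunt was -0.34 ± 0.09 (limma adjusted p = 0.00878). The one in sham rats, -0.25 ± 0.09 (adjusted p = 0.0391), held in 7 of the 12 fits that left out an array. It was lost without atrial shunt 2 (adjusted p = 0.0505), atrial sham 1 (0.0913) or 3 (0.124), or ventricular sham 2 (0.119) or 3 (0.110), and with the replicate number as a block (0.0521).

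Psme1 and Psme2, which together form the cap known as PA28, differed in a like direction. Psme2 had sham values of 8.60, 8.60 and 8.58 in the atrium and 8.86, 8.94 and 8.86 in the ventricle, and shunt values of 8.41, 8.45 and 8.48 against 8.92, 8.79 and 8.95. The chambers did not overlap, with differences of -0.29 ± 0.06 (limma adjusted p = 0.00233) and -0.45 ± 0.06 (adjusted p = 0.00011). Psme1 had sham values of 10.82, 11.04 and 10.91 in the atrium and 11.03, 11.08 and 11.11 in the ventricle, which overlapped, for a difference of -0.15 ± 0.10 (adjusted p = 0.240, or 0.0163 with the hexokinase control as a covariate). Its shunt values were 10.34, 10.46 and 10.71 against 11.17, 10.92 and 11.02, apart by -0.53 ± 0.10 (adjusted p = 0.00109). The change between these 2 differences, -0.38 ± 0.14, did not pass (adjusted p = 0.645), so the gap was not shown to be wider after the shunt.

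**Figure D1:**
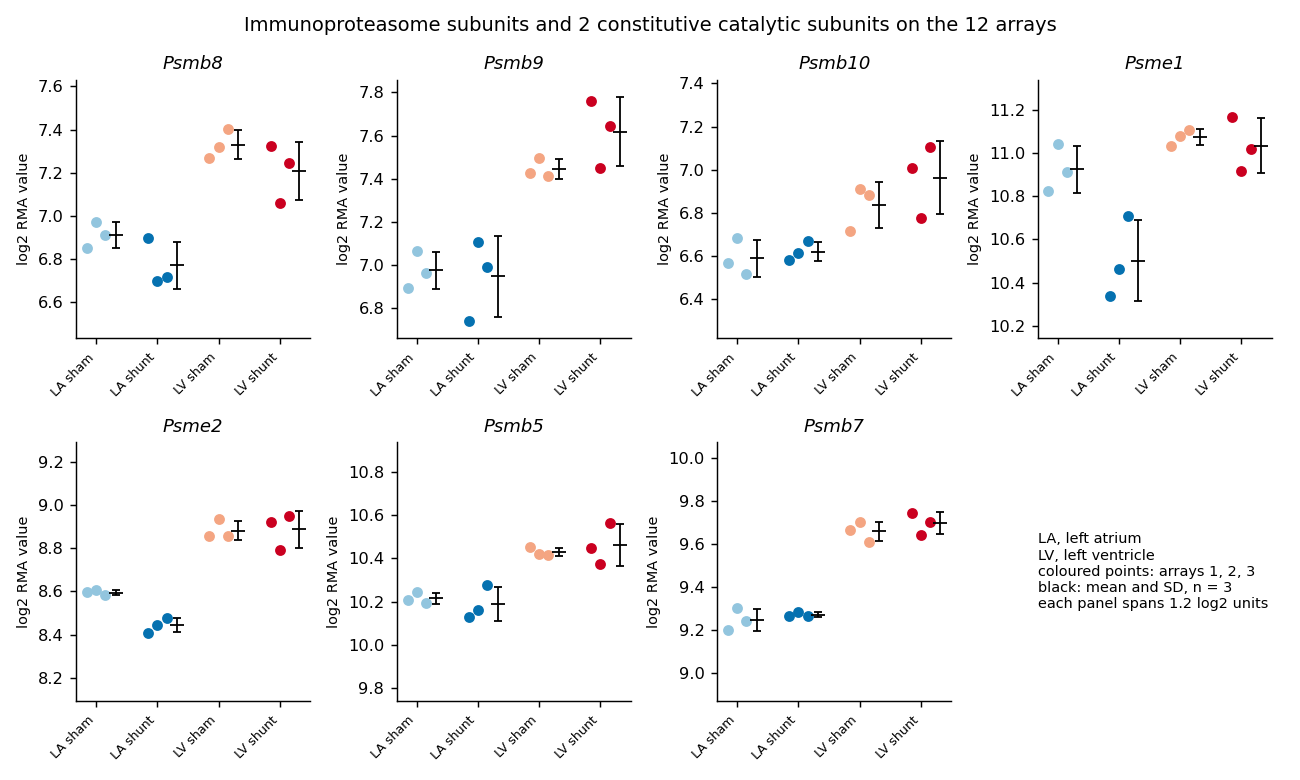
Log2 expression (vertical axis) of 5 immunoproteasome genes and of Psmb5 and Psmb7 on each array (coloured points, horizontal axis by group), with the mean and SD of 3 arrays in black. Each panel spans the same range of log2 units. The atrial points lie below the ventricular ones of the same operation in every panel but Psme1, where the sham groups overlap.

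Most class II and lymphocyte markers tested were also lower in the atrium, and most macrophage markers did not pass. Lower calls made up 22.6% of all genes in sham and 20.9% in shunt rats. Of the class II antigen-presenting markers, 5 of 6 were lower in the atrium of sham rats and 4 of 6 in that of shunt rats, and Cd74, the class II invariant chain, differed by -1.08 ± 0.09 and -1.24 ± 0.09 (limma adjusted p = 1.59e-06 and 6.1e-07). Their summed linear level was 1431 to 1574 on the atrial sham arrays and 1476 to 1949 on the atrial shunt arrays, against 2835 to 3274 and 3551 to 3749 in the ventricle. Of the lymphocyte markers, 8 of 13 lay below the filter and 2 of the 3 tested were lower in the atrium in each operation. Their summed level was 79.2 to 86.2 and 72.6 to 94.0 in the atrium, and 94.98 to 116 and 106 to 117 in the ventricle. Of 10 macrophage markers 2 were lower and 1 higher in the atrium of sham rats, and 1 was lower in that of shunt rats, with median differences of -0.01 and -0.18. Their summed level was 1462 to 1564 on atrial and 1823 to 1878 on ventricular sham arrays, and 1429 to 2189 against 2177 to 2396 after the shunt. Of 7 endothelial markers 4 were lower and 1 higher in the atrium in each operation, and of 7 fibroblast markers 6 and 7 were higher. A summed level weighs the markers of highest value most, so it is compared only between arrays and is not a measure of cell number. The part of these cell types in the immunoproteasome differences was not tested.

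Most antigen-processing and interferon genes around the immunoproteasome had negative differences too. Of 18 tested, 15 had one in sham and 17 in shunt rats, against 47.2% and 48.3% of all genes. As calls, 6 were lower in the atrium of sham rats and 9 in that of shunt rats, with 0 higher in each. Lower calls made up 22.6% and 20.9% of all genes, and higher calls 27.6% and 24.8%. The median differences of the 18 genes were -0.13 and -0.35. Tap1, the peptide transporter beside Psmb8 and Psmb9, differed by -0.46 ± 0.12 and -0.45 ± 0.12 (limma adjusted p = 0.00774 and 0.00921). Cxcl9, a chemokine known to respond to interferon gamma, differed by -1.62 ± 0.10 and -1.60 ± 0.10. The interferon-responsive genes Irf8, Gbp2 and Isg15 differed in sham rats by -0.46, -0.38 and -0.88, and all 3 passed. Tap2, the partner of Tap1, differed by -0.11 ± 0.11 and did not pass (adjusted p = 0.457). Irf1, a transcription factor that acts on such promoters, differed by -0.12 ± 0.08 in sham rats without passing and by -0.40 ± 0.08 in shunt rats (adjusted p = 0.00205).

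Of the constitutive core, all 13 genes had a negative difference between atrium and ventricle in both operations, where 47.2% and 48.3% of all genes tested had one. In sham rats 5 of 13 passed and in shunt rats 4 of 13, all lower in the atrium, with median differences of -0.15 and -0.16. Of all genes, 22.6% and 20.9% passed as lower, and 50.2% and 45.6% in either direction. All 13 were negative also under the further quantile normalization and cyclic loess. In shunt rats 12 of 13 were negative without atrial shunt 1 or without ventricular shunt 1. Fits that left out an array called 2 to 5 core genes in sham rats, with 3 without atrial sham 1 or any of ventricular sham 1, 2 and 3, and 2 without atrial sham 3. In shunt rats such fits called 3 to 7, with 7 without ventricular shunt 2.

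Psmb7, which carries the trypsin-like site, differed most among the core genes. Its sham values were 9.20, 9.30 and 9.24 in the atrium and 9.66, 9.70 and 9.61 in the ventricle, and its shunt values 9.27, 9.28 and 9.26 against 9.74, 9.64 and 9.70. The chambers lay well apart, by -0.41 ± 0.06 (limma adjusted p = 0.000131) and -0.42 ± 0.06 (adjusted p = 0.000109). Psma7, of the alpha ring, had sham values of 9.86, 9.84 and 9.88 against 10.18, 10.26 and 10.22. Its shunt values were 9.72, 9.85 and 9.88 against 10.28, 10.03 and 10.21, again without overlap. Both differences were -0.36 ± 0.07 (adjusted p = 0.00184 and 0.00223).

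Psmb5, which carries the chymotrypsin-like site, had sham values of 10.21, 10.24 and 10.19 in the atrium and 10.45, 10.42 and 10.42 in the ventricle. Its shunt values were 10.13, 10.16 and 10.28 against 10.45, 10.37 and 10.57, so the groups did not overlap in either operation. The differences were -0.22 ± 0.07 (limma adjusted p = 0.0190) and -0.27 ± 0.07 (adjusted p = 0.00568). A second probe set of Psmb5, whose mean of 4.28 lay near the filter at 4.01, differed by 0.09 in sham rats. With the mean of both probe sets the sham difference was -0.06 (adjusted p = 0.375). The sham call was also lost without atrial sham 3 (0.0598) or ventricular sham 1 (0.0571). Psma3 was lower in the atrium in both operations, at -0.21 and -0.19, and Psmb2 in sham rats at -0.19, the last 2 passing in 4 of 12 fits that left out an array. At the other end of the core, Psma2 differed by -0.02 and -0.01, and Psma1 and Psmb1 each by -0.05 in sham rats.

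Most genes of the regulatory particle did not pass between the chambers. Of its 17 genes, 1 was higher and 1 lower in the atrium in each operation. In either direction 50.2% of all genes passed in sham and 45.6% in shunt rats. The median differences of the 17 genes were -0.000283 in sham and 0.025 in shunt rats. The sign of these medians depended on the scaling, with -0.047 and -0.014 after further quantile normalization. None of the 8 genes of the base passed, where Psmc1 to Psmc6 are the ATPases that unfold the substrate and Psmd1 and Psmd2 are scaffolds. Their sham differences ran from -0.18 in Psmd1 to 0.17 in Psmc3, with the smallest differences in Psmc4 and Psmc6. In the base 3 genes had an unadjusted p under 0.05 in sham rats and 0 in shunt rats, where 57.3% and 53.3% of all genes did.

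Of the lid, Psmd13 was higher in the atrium, with sham values of 7.91, 7.84 and 7.89 against 7.64, 7.61 and 7.74, and shunt values of 7.80, 7.91 and 7.86 against 7.73, 7.53 and 7.74. The atrial arrays lay above the ventricular ones in both operations, by 0.22 ± 0.07 (limma adjusted p = 0.0246) and 0.19 ± 0.07 (adjusted p = 0.0498). The sham call was lost under further quantile normalization (0.121) and cyclic loess (0.0871), and without atrial sham 1 (0.0712) or 3 (0.0654) or ventricular sham 1 (0.0704) or 2 (0.0791). The shunt call held in 4 of 10 alternatives and in 1 of 12 fits without an array, with adjusted p up to 0.178 without ventricular shunt 2. Psmd12, another lid subunit, was lower in the atrium, by -0.18 ± 0.06 and -0.22 ± 0.06 (adjusted p = 0.0222 and 0.0102). Its sham call held in 8 of 12 fits without an array, and its shunt call in all 12. The other 7 genes, among them the ubiquitin receptor Psmd4 (-0.05 and -0.02) and the deubiquitinase Psmd14 (0.08 and 0.11), did not pass. Of Psmd11, a second probe set did, at 0.20 and 0.28, where the representative one differed by 0.06 and 0.10. The 2 probe sets of Psmd7 did not pass and had opposite signs. They differed by 0.07 and -0.18 in sham rats and by 0.01 and -0.18 in shunt rats.

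Among the assembly chaperones, Psmg4, which helps to build the alpha ring, had sham values of 7.52, 7.92 and 7.82 in the atrium and 8.25, 8.25 and 8.18 in the ventricle. Its shunt values were 7.80, 7.90 and 7.93 against 8.31, 8.06 and 8.48. The groups did not overlap, and the atrium was lower by -0.47 ± 0.11 (limma adjusted p = 0.00536) and -0.41 ± 0.11 (adjusted p = 0.0134, or 0.0600 without ventricular shunt 3). Psmd9, a chaperone of the base, had sham values of 6.66, 6.89 and 6.75 against 7.15, 7.10 and 7.09, and shunt values of 6.94, 6.92 and 6.87 against 7.15, 7.02 and 7.13. Its sham difference of -0.35 ± 0.07 (adjusted p = 0.00171) held in all 12 fits without an array. The shunt difference of -0.19 ± 0.07 (adjusted p = 0.0497) held in 3 of 12, with an adjusted p of up to 0.142 without ventricular shunt 1, and was -0.13 (adjusted p = 0.239) as the mean of the gene's 2 probe sets.

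Psmd10, or gankyrin, another chaperone of the base, went the other way in sham rats, with 7.79, 7.79 and 7.74 in the atrium and 7.44, 7.37 and 7.45 in the ventricle. Its difference was 0.35 ± 0.09 (limma adjusted p = 0.00745). After the shunt the values were 7.46, 7.68 and 7.85 against 7.55, 7.41 and 7.58, which overlapped (0.15 ± 0.09, adjusted p = 0.213, or 0.0278 without atrial shunt 1). The change between operations did not pass (-0.20 ± 0.13, adjusted p = 0.869). Psmg1, a partner of Psmg2 in alpha ring assembly, had shunt values of 7.85, 7.92 and 7.87 against 8.06, 8.11 and 8.11, a difference of -0.22 ± 0.06 (adjusted p = 0.00809). Its sham values were 8.02, 8.0 and 8.06 against 8.12, 8.19 and 8.20, apart by -0.14 ± 0.06 without a call (adjusted p = 0.0535). This sham difference passed in 6 of 10 alternatives and in 0 of 12 fits without an array.

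The remaining activator and the inhibitor differed in opposite directions in sham rats. Psme4, known as the nuclear activator PA200, had sham values of 8.87, 8.86 and 8.90 in the atrium and 9.12, 9.16 and 9.13 in the ventricle, a difference of -0.25 ± 0.06 (limma adjusted p = 0.00278). Its other probe sets differed by -0.28, which passed, and -0.04. Psmf1, a proline-rich inhibitor of the core, had 7.48, 7.46 and 7.36 against 7.10, 7.17 and 7.25, a difference of 0.26 ± 0.06 (adjusted p = 0.00582). After the shunt Psmf1 had overlapping values of 7.34, 7.39 and 7.26 against 7.22, 7.20 and 7.27. Neither gene passed there, at -0.11 ± 0.06 for Psme4 and 0.10 ± 0.06 for Psmf1, and the changes between operations did not pass (adjusted p = 0.815 and 0.838). The non-subunits Psmc3ip and Psme3ip1 differed by 0.11 and 0.15 in sham rats and did not pass.

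**Figure D2:**
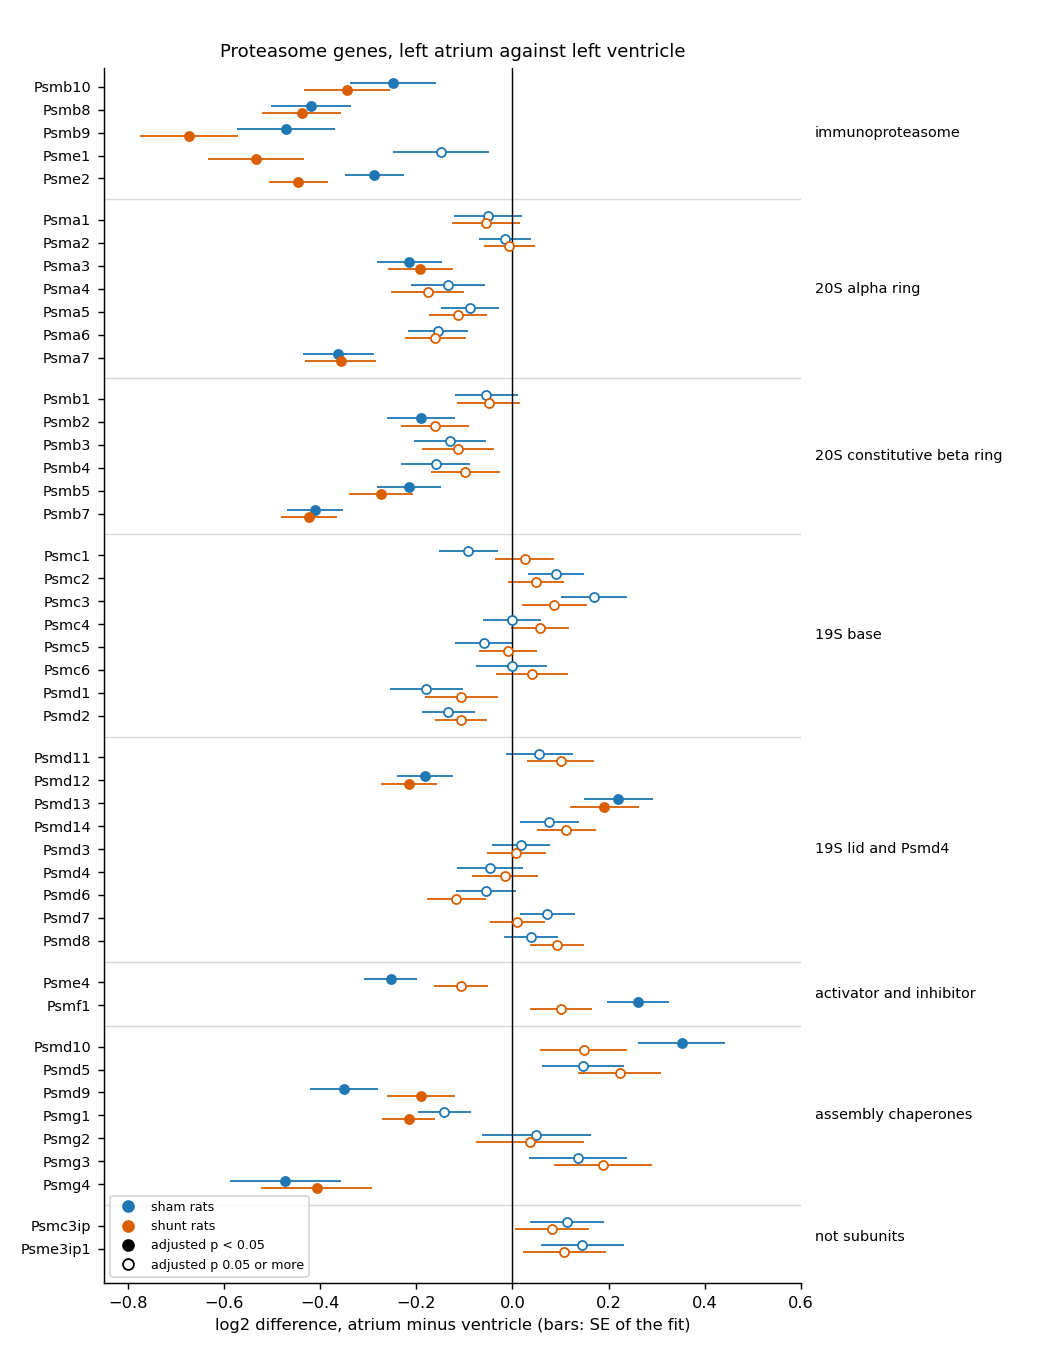
Log2 difference between left atrium and left ventricle (horizontal axis, atrium minus ventricle, bars the SE of the fit) for the 46 genes by class, in sham rats (blue) and shunt rats (orange); filled points passed an adjusted p of 0.05. The 5 immunoproteasome and 13 core genes lie left of 0 in both operations, and the 17 regulatory genes lie on both sides.

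In all, 13 of the 46 genes were lower and 3 higher in the atrium of sham rats, and 13 were lower and 1 higher in that of shunt rats, where 50.2% and 45.6% of all genes tested passed in either direction. Higher calls made up 27.6% and 24.8% of all genes. Of the members 30 and 32 did not pass, and the calls lay mostly on the lower side. Of the 13 lower genes, 11 passed in both operations, 84.6% of each list, and over all genes those lower in both were 75.9% of the sham and 82.3% of the shunt list. As a share of all genes measured, 23.9% of the members and 17.2% of all genes were lower in both. The sign was the same in both operations in 43 of 46 members (93.5%) and in 86.9% of all genes. The arrays of the chambers did not overlap in 23 genes lower and 6 higher in the atrium of sham rats (29.1% and 34.7% of all genes), and in 17 lower and 4 higher in that of shunt rats (25% and 28.4%). Counted by probe set, 18 of 55 passed in sham and 15 in shunt rats (47.2% and 41.9% of all). Of the former, 14 were lower and 4 higher (22.2% higher), and after further quantile normalization 18 were lower and 2 higher (10% higher). The median of all probe sets moved by less than 0.05 under each scaling.

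Other factors of the proteasome from lists outside the rule did not follow 1 direction. Pomp, the maturation factor of the core, was lower in the atrium, by -0.23 ± 0.06 and -0.28 ± 0.06 (limma adjusted p = 0.0119 and 0.00424). The 2 deubiquitinases that bind the regulatory particle were higher there, Uchl5 by 0.81 ± 0.07 and 0.56 ± 0.07 (adjusted p = 1.9e-06 and 4.31e-05) and Usp14 by 0.17 ± 0.06 and 0.19 ± 0.06 (adjusted p = 0.0348 and 0.0265). The other 5 of 8 tested did not pass. Of 8 regulators of proteasome genes, 3 were higher and 0 lower in the atrium of sham rats. Among all genes, 27.6% were higher and 22.6% lower in sham rats, and 24.8% and 20.9% in shunt rats. The 3 regulators were Nfe2l2, at 0.19 ± 0.06, and Ngly1 and Ddi2, the glycanase and protease that activate Nfe2l1, at 0.21 ± 0.07 and 0.42 ± 0.12. After the shunt only Nfe2l2 of these 8 passed, at 0.33 ± 0.06 (adjusted p = 0.00073).

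The shunt moved no proteasome gene past the threshold. Of the 46 genes 0 passed in the atrium, where 1.4% of all genes did, 0 in the ventricle (0.113% of all) and 0 in the difference of the effects (0% of all). Counted by probe set, 0 of 55 passed in each (1.3% of all in the atrium and 0.107% in the ventricle). At an unadjusted p under 0.05 in limma, 5 genes stood out in the atrium, 1 in the ventricle and 1 in the difference, where 15.9%, 14.6% and 6.79% of all genes did. The median differences were -0.01 in the atrium and 0.01 in the ventricle over the 46 genes, and 0.02 and 0.01 over the core. Over the immunoproteasome they were -0.14 and 0.01. The 95% intervals of 45 genes lay within 0.5 log2 units of 0 in the atrium, except for Psme1, and likewise of 45 in the ventricle, except for Psmg3. The SE ran from 0.05 to 0.11.

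Psme1 had the largest atrial difference. Its 3 shunt arrays (10.34, 10.46 and 10.71) lay below its 3 sham arrays (10.82, 11.04 and 10.91), at -0.42 ± 0.10 (limma adjusted p = 0.0657). In the ventricle the arrays overlapped, at 11.17, 10.92 and 11.02 against 11.03, 11.08 and 11.11 (-0.04 ± 0.10, adjusted p = 0.893). The atrial value passed in 4 of 10 alternatives and without atrial shunt 3, where it was -0.53 (adjusted p = 0.0146), and its adjusted p ran from 0.00627 to 0.220 over all of them. Psme2, its partner in the cap, had atrial shunt arrays (8.41, 8.45 and 8.48) below the sham arrays (8.60, 8.60 and 8.58), by -0.15 ± 0.06 without a call (adjusted p = 0.263). Groups that did not overlap were seen in 21.8% of all genes in this comparison, and in 8 of the 46 members, 6 lower and 2 higher. In the ventricle they were seen in 21.4% of all genes and in 8 members.

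Psme4 differed upward. Its atrial shunt values of 9.13, 9.08 and 9.20 lay above the sham values of 8.87, 8.86 and 8.90, at 0.25 ± 0.06 (limma adjusted p = 0.0502), and the ventricular values of 9.23, 9.25 and 9.25 above 9.12, 9.16 and 9.13, at 0.11 ± 0.06 (adjusted p = 0.391). The atrial value passed in 6 of 10 alternatives and in 0 of 12 fits without an array, with adjusted p from 0.0114 to 0.229. A second probe set differed by 0.22 in the atrium and the third by 0.01, and neither passed.

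Of the chaperones, Psmg3 had the lowest shunt difference in the ventricle, with 6.31, 6.31 and 6.57 after the shunt and 6.52, 6.85 and 6.72 in sham rats, which overlapped (-0.31 ± 0.10, limma adjusted p = 0.212). In the atrium it had 6.51, 6.51 and 6.72 against 6.78, 6.89 and 6.84 (-0.25 ± 0.10, adjusted p = 0.258), which did not overlap. Psmd5, a chaperone of the base, had 7.20, 7.26 and 6.98 in the atrium after the shunt against 7.0, 7.02 and 6.96 (0.15 ± 0.09), and 6.80, 6.94 and 7.02 in the ventricle against 6.86, 6.76 and 6.93. These overlapped in both chambers. The lid subunit Psmd3 had 7.88, 8.0 and 8.02 against 8.04, 8.12 and 8.14 in the atrium (-0.13 ± 0.06, adjusted p = 0.345), and 7.94, 7.94 and 8.0 against 8.09, 8.09 and 8.06 in the ventricle (-0.12 ± 0.06, adjusted p = 0.385), without overlap in either chamber. None of these 3 genes passed.

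**Figure D3:**
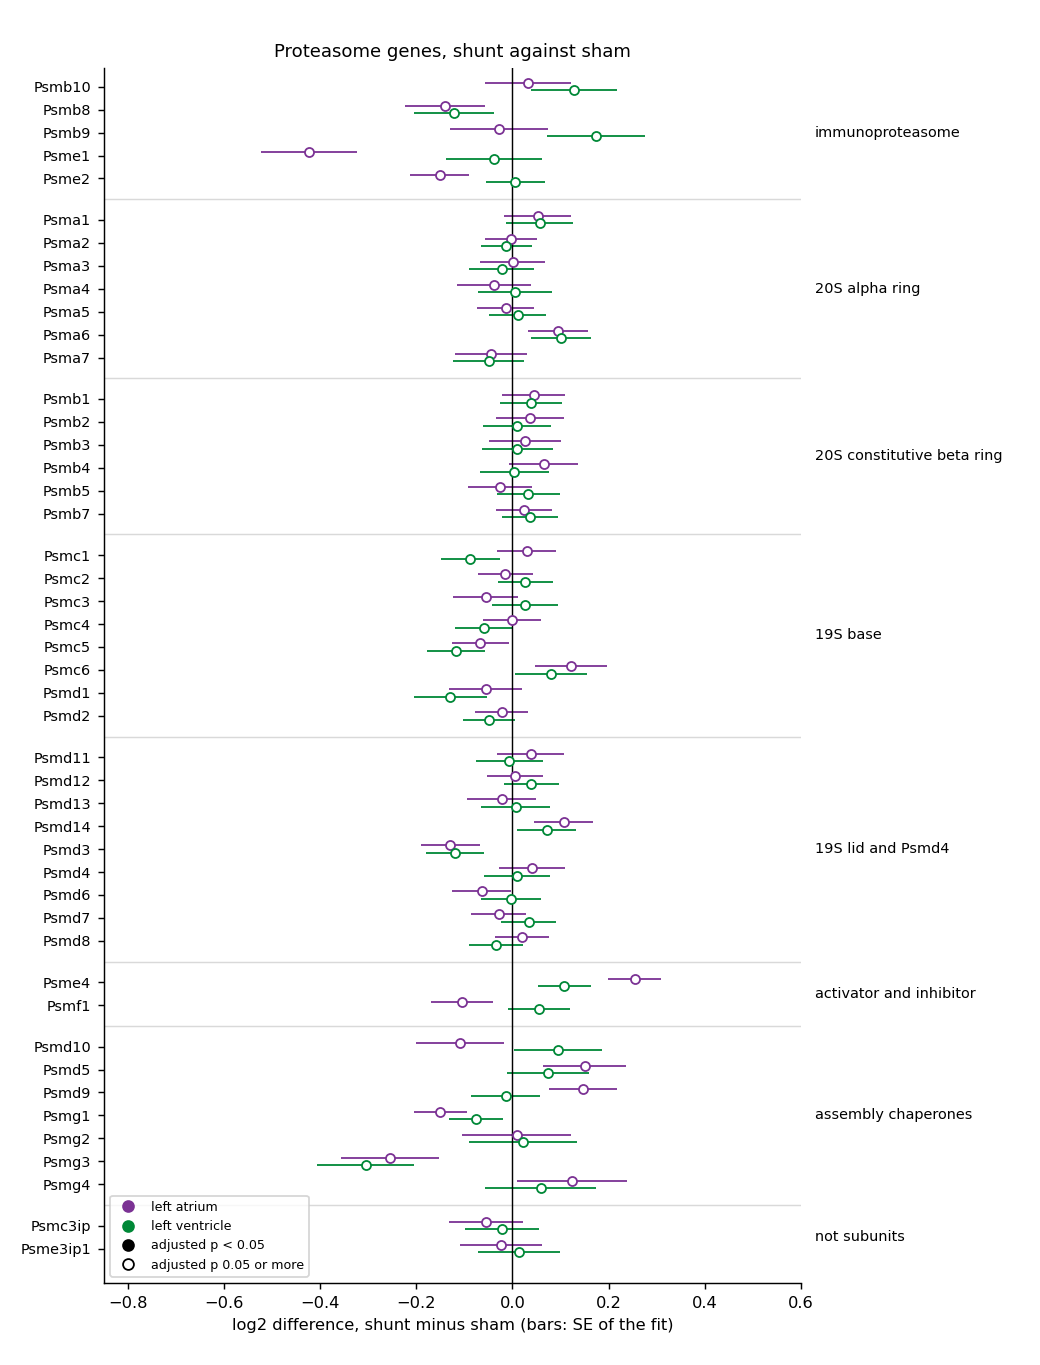
Log2 difference between shunt and sham (horizontal axis, shunt minus sham, bars the SE of the fit) for the 46 genes by class, in left atrium (purple) and left ventricle (green). All points are open, since none passed an adjusted p of 0.05, and Psme1 in the atrium lies farthest from 0 at -0.42.

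The arrays of both shunted chambers were uneven. As medians of the deviations from each gene's mean over 12 arrays, the core stood at 0.13 on ventricular shunt 1 and 3 but at -0.04 on ventricular shunt 2, and the immunoproteasome at 0.27 and 0.25 but at 0.03. The hexokinase control probe sets, whose signal at the 3′ end over that at the 5′ end reflects RNA integrity and labelling length, differed by 1.23 and 1.18 on arrays 1 and 3 and 0.82 on array 2. This difference ran from 0.84 to 1.10 on the sham arrays, and was 0.80, 0.94 and 1.44 on atrial shunt 1, 2 and 3. With it as a covariate the core differences between shunt and sham in the ventricle were negative in 9 of 13 genes, against 3 of 13 without it, and their median was -0.02 in place of 0.01. None passed in either fit. Over atrial shunt 1, 2 and 3, Psme1 rose in the same order as this control. Its atrial difference between shunt and sham with the covariate was -0.42 (limma adjusted p = 0.00627). The immunoproteasome medians between the chambers were -0.31 and -0.44 with the covariate. Without ventricular shunt 2 the immunoproteasome median between the shunted chambers was -0.51, and that of the core -0.20.

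**Figure D4:**
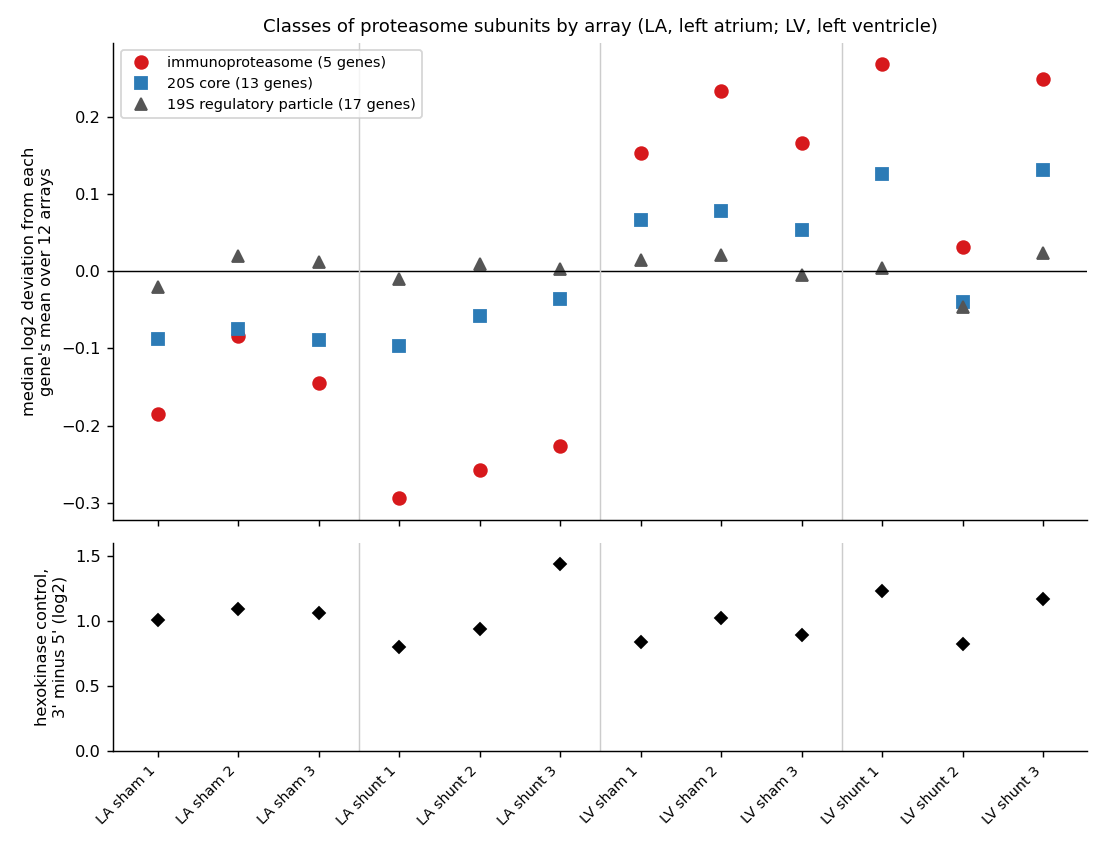
Upper panel, median log2 deviation of the immunoproteasome (red), core (blue) and regulatory genes (grey) on each array, and lower panel, the hexokinase control, signal at the 3′ end minus that at the 5′ end in log2 units. Immunoproteasome and core lie below 0 on all 6 atrial arrays, ventricular shunt 2 lies nearest to 0 among the ventricular arrays for the immunoproteasome and below 0 for the core, and the regulatory genes stay close to 0.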

How the data were processed

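Expression was measured on 12 Affymetrix rat arrays. The deposited values are RMA values, made by the authors per the submitters' processing notes and lying on a log2 scale from 2.05 to 14.29. The RMA version and which arrays were normalized together are not given in the sources used here. From the 31099 probe sets, 57 controls and those with a mean below the 40th percentile (log2 4.01) were left out. Symbols came from the platform annotation, updated to the gene table of assembly GRCr8, and only probe sets with 1 symbol were named.

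A model with a mean for each group was fitted to every probe set in limma 3.58.1 under R 4.3.3 (lmFit and eBayes, 8 residual degrees of freedom). Two-sided p-values were adjusted by Benjamini and Hochberg's method over 18625 probe sets. The spread was pooled over all groups. Alternatives were other filters, scalings, weights, priors and covariates, the replicate block, averaged probe sets per gene, only the groups compared, and leaving out each array. The script was tested on simulated data.

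The members and all gene lists were chosen with earlier results of these data known, so no list was tested as a set. Array values are given for the immunoproteasome genes, Psmb5 and Psmb7, up to 8 passing genes per comparison by smallest p, and the 2 of smallest p in each direction. Of each other list up to 4 passing genes are named, filled to 2. Psmd12, Psma3, Psmb2 and others outside this rule were chosen after their values were seen.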

Additional observations from a re-analysis of the deposited data

How the results depend on the processing

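No called value changed its direction under any alternative. Of the alternative values for the counts of calls and the class medians, 418 stayed within 1.5 times the count or 1 SD between arrays, and 20 did not. Class medians near 0 changed sign in 27 of 327 alternative values, 14 of them of the regulatory particle, 8 of the core and 5 of the immunoproteasome, and the medians concerned were at most 0.025 in size. The shunt count in the atrium, 0 of 55 probe sets, became 2 with a filter at the 60th percentile or array weights. It was also 2 with a trended and robust prior or the hexokinase covariate, and 1 after further quantile normalization or cyclic loess. It was 0 to 1 without an array, with 1 without atrial shunt 3. The cause of these changes was not tested. In the main fit 1.3% of all probe sets passed, and the shares under the alternatives are not given here. These counts are therefore not read as a result about the members. The regulatory median, near 0 in all comparisons, moved with the scaling: to 0.011 for the shunt in the atrium under quantile normalization, to -0.047 and -0.040 between the sham chambers under quantile normalization and cyclic loess, and to -0.014 and -0.0091 between the shunted chambers. Without an array it ran from -0.033 to 0.026 for the shunt in the ventricle, from 0.0039 to 0.041 for the difference of effects and from -0.0024 to 0.044 between the shunted chambers. The core median ran from -0.014 to 0.064 for the shunt in the ventricle and from -0.049 to 0.019 for the difference of effects, both extremes away from 0 being fits without ventricular shunt 2. Among the values of the named genes, 48 lost and 26 gained a call. Between the chambers, probe sets called without an array numbered 12 to 19 in sham and 12 to 17 in shunt rats.

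Whether atrial and ventricular pools of one number share rats is not stated. In sham rats the deviations of chambers with the same number correlated at 0.07 to 0.26 (different numbers -0.23 to 0.03), and 6 of 6 arrays correlated best with their own number. In shunt rats the correlations were -0.24 to 0.44 (different numbers -0.62 to 0.45), and 3 of 6 arrays did so. Not every pair exceeded 0.1, and the labels do not say that the numbers pair the arrays. The block was therefore kept out of the results and used as an alternative, which does not settle whether pools share rats. The replicate number was also used as a block over both operations. This fit called 16 member probe sets between the sham chambers, 12 between the shunted ones and 0 in each shunt comparison. Without a block, 47.2% and 41.9% of all probe sets were called between the chambers. An alternative added after seeing the data took each pair of chambers of one number and operation as a block. It called 17 of 55 member probe sets between the sham chambers and 12 between the shunted ones. Of all 18625 probe sets it called 9009 and 8057. These 17 and 12 members were also called without the block (18 and 15). Arrays have no read depth, and 3 arrays per group limit what can be called.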

Other observations

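Lists of genes for steps before the proteasome held calls in both directions between the chambers. Of all genes tested, 22.6% were lower and 27.6% higher in the atrium of sham rats, and 20.9% and 24.8% in shunt rats. The counts of these lists are to be read beside those shares. Of 18 genes for ubiquitin and its conjugation, 4 were lower and 3 higher in the atrium of sham rats, and 4 lower and 1 higher in that of shunt rats. The conjugating enzymes Cdc34, Ube2b and Ube2d1 were lower, by -0.55 ± 0.06, -0.44 ± 0.07 and -0.44 ± 0.08 in sham rats (limma adjusted p = 3.17e-05, 0.000259 and 0.000758), and by -0.63, -0.47 and -0.42 after the shunt. Ube2n, which builds ubiquitin chains used in signalling, was higher by 0.37 ± 0.10 and 0.40 ± 0.10. Of 11 muscle ubiquitin ligases 2 were higher and 1 lower in sham rats and 3 higher and 2 lower in shunt rats. Asb2 was lower, by -0.78 ± 0.10 and -0.62 ± 0.10, and Fbxo30 higher, by 0.81 ± 0.07 and 0.74 ± 0.07. The atrophy ligase Trim63, or MuRF1, passed in shunt rats (-0.46 ± 0.13, adjusted p = 0.0141) and not in sham rats (-0.29 ± 0.13). Of 13 shuttle and extraction factors 4 were higher and 4 lower in sham rats, among them Ubqln2 at 0.61 ± 0.06 and Ufd1 at -0.29 ± 0.06, and 5 were higher and 3 lower in shunt rats.

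With the shunt, 1 gene of these lists passed in the atrium and 0 in the ventricle, where 1.4% and 0.113% of all genes did. Fbxl22, an F-box protein of the sarcomere, rose in the atrium by 0.67 ± 0.11 (limma adjusted p = 0.0125) and differed by 0.15 ± 0.11 in the ventricle (adjusted p = 0.54). The atrophy ligase Fbxo32, or atrogin-1, differed by 0.07 ± 0.19 and -0.27 ± 0.19 and did not pass.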
